A study of Mus musculus with 4 samples.

Results

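Tug1 and Airn are long noncoding RNAs, and the table of N6-methyladenosine (m6A) peaks held 13 rows for them, of 33977 rows in 10415 genes. Every row whose gene name was Tug1 (12 rows) or Airn (1 row) was taken. The study measured m6A, a methyl mark on adenosines of RNA, in mouse cerebral cortex by sequencing RNA fragments pulled down with an anti-m6A antibody. The groups were 2 libraries from mice after repetitive mild traumatic brain injury (rmTBI, labelled TBI) and 2 from mice after a sham procedure. The libraries of each group are numbered 0 and 1 in the labels, with no word on what the numbers stand for or on how many mice gave RNA. A p-value here thus gauges the scatter among 4 libraries, and that scatter may be technical. All 4 labels name the same anti-m6A antibody. None is labelled as RNA taken before the pull-down, but the deposited change per peak closely follows library 1 over library 0 of rmTBI, divided by library 1 over library 0 of sham. The number may therefore mark a difference in kind between libraries, such as pull-down and input, and this could not be settled from the labels. If it does, each mean, SD and fit of rmTBI against sham given here mixes the kinds, and the values per library and per number are the ones that can be read. The labels give no genotype, strain, age, injury protocol or time after injury. The 2 genes were chosen by measured values of these same libraries, the deposited change of rmTBI over sham among them, so values of that contrast are a description, and its counts of calls stand only beside the share called among all rows.

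Tug1, taurine upregulated gene 1, is a conserved, widely expressed RNA that has been found in the nucleus and the cytoplasm. It is transcribed away from its neighbour Morc2a, a gene of a chromatin ATPase, and the starts of the pair lie head to head. Airn is an imprinted RNA transcribed from the paternal allele, antisense to Igf2r. It is largely unspliced, and its transcription across the Igf2r promoter silences that promoter on the same chromosome. The m6A mark is deposited by the METTL3 complex and is read by proteins that bind methylated RNA and affect its stability, splicing or translation. The antibody enriches fragments around the methylated base, so that a peak is a stretch of transcript and not a single adenosine.

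The deposited coordinates were read as GRCm38 positions, because 98.3% of 31971 rows of genes with 1 RefSeq span in GRCm38.p6 overlapped that span, although the submitters' processing notes name GRCm39. Tug1 (gene ID 544752) spans chr11:3639785-3648814 on the minus strand, and Airn (gene ID 104103) spans chr17:12741311-12859884 on the plus strand. The deposited class of all 13 rows was NP_exon, a term the deposited tables leave undefined. The table lists the peaks of an rmTBI set and of a sham set, so a stretch found in both has 2 rows that share reads. Tug1 had 7 rows of the rmTBI set and 5 rows of the sham set, and they fell into 7 sites, numbered here from the 5′ end. Sites 2, 3, 5, 6 and 7 had a row in both sets, and sites 1 and 4 in the rmTBI set only. The Airn row was in the rmTBI set only. For comparison, 41.6% of the 579 NP_exon rows of the rmTBI set overlapped no row of the sham set.

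Site 1 of Tug1 (chr11:3649224-3649434) lay outside the RefSeq span, 410 to 620 bases upstream of its start, and inside the span of Morc2a on the other strand. The deposited table assigns it to the transcript ENSMUST00000193809, and the other 11 rows to ENSMUST00000132077. No source used here says whether counting used the strand, so reads of Tug1 and Morc2a cannot be told apart at this site. The promoter window of Tug1 is shown because it holds the start of the RefSeq transcript and part of the stretch between it and the upstream peak (RefSeq, GRCm38.p6, chr11:3648765-3649064, minus strand, 5′ to 3′). The capitals mark the first 50 transcribed bases. A stretch of 30 bases from the middle of the upstream peak is given next, on the same strand, read from the RefSeq promoter window of Morc2a that covers the peak (chr11:3649315-3649344).
Tug1 promoter: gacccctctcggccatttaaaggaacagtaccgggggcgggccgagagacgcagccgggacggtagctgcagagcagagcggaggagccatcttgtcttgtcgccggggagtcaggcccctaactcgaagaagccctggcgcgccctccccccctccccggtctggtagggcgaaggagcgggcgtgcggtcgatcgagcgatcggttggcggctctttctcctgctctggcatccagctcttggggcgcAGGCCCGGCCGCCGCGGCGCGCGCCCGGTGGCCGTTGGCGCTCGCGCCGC
Upstream peak, middle: agtacggctttgcggccggtgctgcccgcg
The window was rich in G and C (71.3%, against a median of 52.7% over 32851 promoter windows of the mouse), as was the whole 211-base upstream peak (71.6%). GGAC, the commonest core of the m6A consensus, occurred 1 time in the promoter window on the Tug1 strand, upstream of the start, and 0 times on the other strand. Copies of these letters cannot overlap each other, and they occurred in 65.6% of all promoter windows on the gene's strand and in 87.7% on either strand. In the upstream peak GGAC occurred 0 times on either strand, while 77.2% of 211-base stretches cut from the promoter windows held it on either strand. These counts describe the letters of the windows only. For the remaining sites and for Airn no sequence is printed.

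Tug1 was among the most peak-rich NP_exon genes of the table. Its 12 rows were matched or exceeded in 3 of 683 NP_exon genes, Tug1 included, while 55.9% of these genes had 1 row, as Airn did. The rmTBI rows covered 20.33% of the Tug1 span and the sham rows 16.33%. Counts were dense at the 3′ end. Site 7 (chr11:3639904-3640114 over both sets), the last before the 3′ end, held 158 and 393 counts in rmTBI libraries 0 and 1 against 234 and 446 in sham libraries 0 and 1, by its rmTBI row. These are 66.2 and 78.1 CPM per kilobase of peak in rmTBI libraries 0 and 1 and 92.2 and 90.1 in sham libraries 0 and 1, where CPM are counts scaled to the library size by the TMM method. Every rmTBI value was below every sham value. On this scale the rmTBI row of site 7 stood at percentile 92.2 of the NP_exon rows in rmTBI and at percentile 95.2 in sham.

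Site 2 (chr11:3646594-3647104), 1710 to 2220 bases downstream of the start, was the other strong site. Its rmTBI row held 117 and 424 counts in rmTBI libraries 0 and 1, against 139 and 361 in sham libraries 0 and 1. That is 17.4 and 29.9 CPM per kilobase in rmTBI and 19.4 and 25.8 in sham, and the groups overlapped, with library 1 above library 0 in each. Sites 5 (chr11:3640742-3641042) and 6 (chr11:3640323-3640623) lay near the 3′ end. The rmTBI row of site 5 held 22.6 and 21.3 CPM per kilobase in rmTBI libraries 0 and 1, against 26.7 and 27.4 in sham libraries 0 and 1. That of site 6 held 13.4 and 19.7 in rmTBI and 16.1 and 23.1 in sham. The groups did not overlap at site 5 and overlapped at site 6.

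The remaining sites were sparse. Site 3 (chr11:3644933-3645293) held 8 and 51 counts in rmTBI libraries 0 and 1 against 24 and 55 in sham libraries 0 and 1, by its rmTBI row. Site 4 (chr11:3641730-3642090) held 7 and 55 counts in rmTBI libraries 0 and 1 and 33 and 41 in sham libraries 0 and 1. Site 1 held 2 and 18 counts in rmTBI and 5 and 10 in sham, and it did not pass the filter on low counts, so 11 of the 12 Tug1 rows were tested. By the rmTBI rows of these sites rmTBI library 0 held the fewest counts, and rmTBI library 1 held the most at sites 1 and 4. The exact Poisson 95% interval at site 4 was 2.81 to 14.4 counts for rmTBI library 0 and 22.7 to 46.3 for sham library 0, which covers counting error only. The genes were chosen with the deposited change in view, and the site 4 row is in the authors' list of higher peaks. The gap between these intervals is thus a description only.

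By mean CPM per kilobase over the rows of the rmTBI set, site 7 led in rmTBI with 72.1 ± 8.44 and in sham with 91.15 ± 1.45 (SD, n = 2 libraries each). The neighbours in that order, sites 2, 5 and 6, had 23.6 ± 8.83, 22.0 ± 0.935 and 16.5 ± 4.51 in rmTBI and 22.6 ± 4.56, 27.0 ± 0.492 and 19.6 ± 4.94 in sham, where site 5 stood above site 2. These SDs span libraries 0 and 1 and do not measure the spread of a difference between sites of the same library. Within every library site 2 stood above site 6. Site 5 stood above site 2 in rmTBI library 0 and in both sham libraries, and below it in rmTBI library 1. By the rows of the sham set, site 5 stood below site 2 in sham library 1 as well (22.12 against 27.45). The sham means of these rows were 22.19 at site 5 and 24.03 at site 2, so this order changed with the edges of the peaks. These orders were not tested. Sites 3, 4 and 1 followed with 4.50 ± 3.21, 3.475 ± 2.84 and 1.89 ± 1.66 in rmTBI and 6.87 ± 0.784, 5.34 ± 1.67 and 1.71 ± 0.0311 in sham. Their order was the same in both rmTBI libraries, while in sham library 0 site 4 stood above site 3 (6.52 against 6.31). Counts at these sites were low, and this order was not tested.

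**Figure D1:**
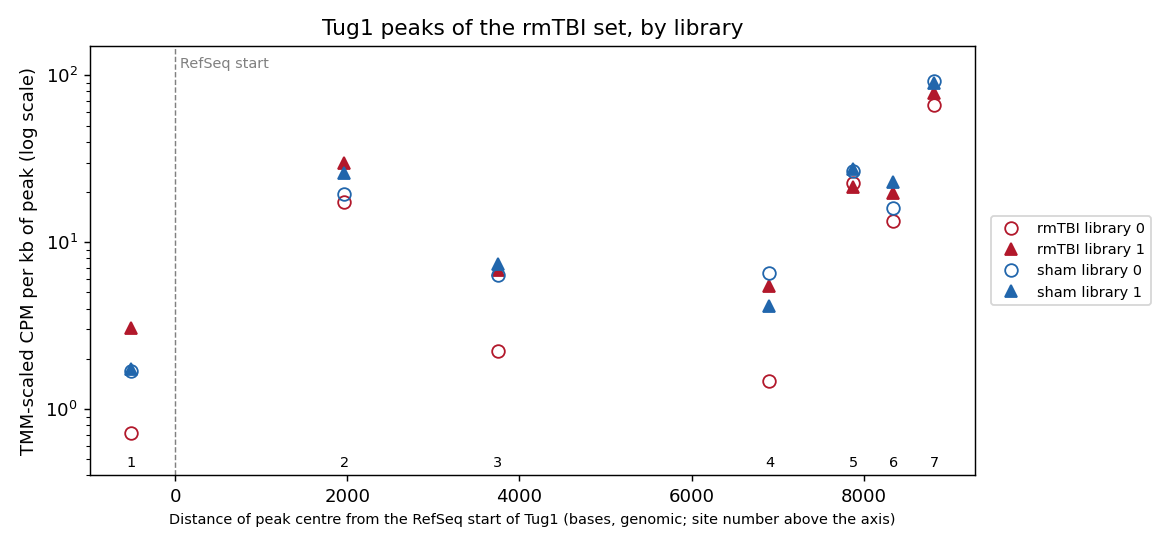
TMM-scaled CPM per kilobase of peak (log axis) at the 7 Tug1 sites by the rows of the rmTBI set, against the genomic distance of the peak centre from the RefSeq start in bases, for rmTBI (red) and sham (blue) libraries 0 (open circles) and 1 (triangles). Site 7 is the highest in every library, from 66.2 to 92.2, and rmTBI library 0 is the lowest library at sites 1 to 4.

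As a share of the Tug1 counts in rows of the rmTBI set, site 7 took 38.7% and 31.9% in rmTBI libraries 0 and 1 and 40.2% and 35.4% in sham libraries 0 and 1. Site 2 took 28.7% and 34.4% in rmTBI and 23.9% and 28.6% in sham. In each group library 1 therefore had more of its Tug1 counts at site 2 and fewer at site 7 than library 0. The mean share of site 2 was 31.6% ± 4.08 in rmTBI and 26.3% ± 3.36 in sham (SD, n = 2 libraries each), and this difference was not tested. Site 5 took 12.8% ± 3.74 in rmTBI and 13.05% ± 0.738 in sham, and site 6 took 13.2% ± 0.292 in rmTBI and 13.4% ± 2.39 in sham.

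Summed over the 5 rows of the sham set, which do not overlap, Tug1 held 32.6 and 42.4 CPM in rmTBI libraries 0 and 1, against 40.4 and 45.6 CPM in sham libraries 0 and 1. The means were 37.5 ± 6.94 CPM in rmTBI and 43.0 ± 3.72 CPM in sham, and the groups overlapped. In bulk tissue, fewer cells of a type and less RNA per cell cannot be told apart, and in these antibody libraries neither can the methylation of a transcript and its abundance. Of the 11 tested Tug1 rows, 9 lay lower in rmTBI and 2, the overlapping rows of site 2, lay higher. Their median log2 fold change was -0.30, against 0.02 over all rows, and the values ran from -0.54 to 0.07. Overlapping rows of 1 site share reads, and the share of all rows that lay lower was not counted. At site 7 the log2 value was -0.33 (SE 0.25) by the rmTBI row, and at site 2 it was 0.07 (SE 0.33). By the quasi-likelihood test of edgeR, with p-values adjusted by Benjamini-Hochberg, 0 of the 12 tested Tug1 and Airn rows were called at 0.05, where the background was 0.0868% (29 of 33415 rows). Of the 12, 0 had an unadjusted p under 0.05 (2.84% of all rows), and DESeq2 called 0 of the 13. Because the genes were picked with this contrast in view, nothing is read from these counts.

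At 5 rows of Tug1 (both rows of sites 5 and 7 and the sham row of site 3) both rmTBI libraries lay below both sham libraries. Over all tested rows such a separation was found downward in 12.3% and upward in 12.3%. Set against sham library 0, rmTBI library 0 had less at every Tug1 row, where the rows of 1 site share reads. Set against sham library 1, rmTBI library 1 had more at 4 rows. The matching shares over all rows were not counted, so nothing is read from either comparison. The rows of sites 5, 6 and 7 and of site 3 lay lower within both numbers. At site 7 the log2 of rmTBI over sham was -0.48 for number 0 and -0.21 for number 1, by the rmTBI row. At site 4 it was -2.15 and 0.40, and at site 1 it was -1.23 and 0.82. For site 4 the fitted log2 value of -0.51 (SE 0.63) was 0.052 without rmTBI library 0 and -1.82 without rmTBI library 1, so single libraries decided it. At site 2, for the rmTBI row, it was 0.38 without rmTBI library 0 and -0.39 without rmTBI library 1. The lowest value of the transcript, -0.54 (SE 0.57) at the rmTBI row of site 3, was -0.044 without rmTBI library 0 and -1.62 without rmTBI library 1. At site 6, by the rmTBI row, the value was 0.054 without sham library 1 and -0.57 without rmTBI library 1.

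Airn had 1 row, chr17:12814614-12814824, which lay 73303 to 73513 bases downstream of the RefSeq start, beyond the 5′ end of Igf2r (12769706) and outside every other RefSeq gene of the assembly. The row held 11 and 49 counts in rmTBI libraries 0 and 1, against 35 and 36 in sham libraries 0 and 1. These are 0.834 and 1.76 CPM in rmTBI and 2.50 and 1.32 CPM in sham, with means of 1.30 ± 0.657 CPM in rmTBI and 1.91 ± 0.833 CPM in sham (SD, n = 2 libraries each). The groups overlapped, with rmTBI library 0 lowest and sham library 0 highest. The Poisson 95% interval was 5.49 to 19.7 counts for rmTBI library 0 and 24.4 to 48.7 for sham library 0, which covers counting error only. The genes were chosen with the deposited change in view, and this row is in the authors' list of higher peaks. Nothing is therefore read from the gap between the intervals. The log2 of rmTBI over sham was -1.58 for number 0 and 0.42 for number 1, and the fitted value was -0.47 (SE 0.56). Without sham library 0 the fitted value was 0.012, and without rmTBI library 1 it was -1.15. Per kilobase the peak stood at 3.95 and 8.35 CPM in rmTBI and 11.8 and 6.24 CPM in sham, which puts its means at percentile 27.5 of the NP_exon rows in rmTBI and 36.1 in sham.

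**Figure D2:**
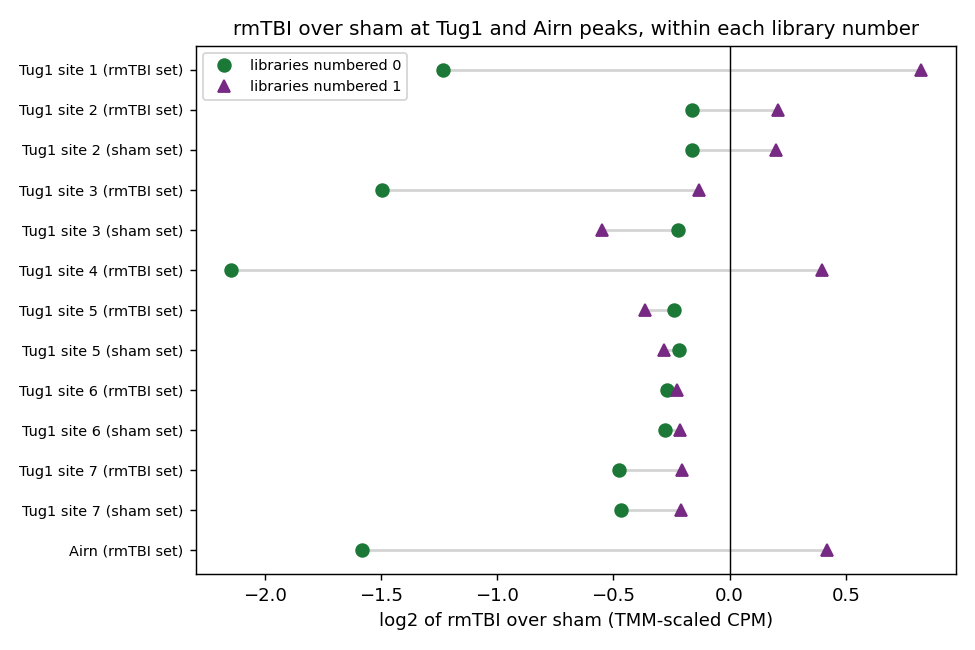
Log2 of rmTBI over sham (TMM-scaled CPM) at each Tug1 row and the Airn row, within the libraries numbered 0 (circles) and 1 (triangles). The rows of sites 5, 6 and 7 lie close together and below 0, while site 1, site 4 and Airn lie below 0 within number 0 and above 0 within number 1.

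Whether the peaks of one transcript move together was asked by setting each Tug1 row against the transcript's peaks as a whole. For rmTBI over sham, the 2 rows of site 2 had relative log2 values of 0.28 and 0.27, and the 9 others lay from -0.33 to -0.02. Without rmTBI library 1 the value of both site 2 rows was 0.060. The value of -0.33, at the rmTBI row of site 3, was -0.029 without rmTBI library 0 and -1.17 without rmTBI library 1. None of the 11 rows was called, against a background of 0.00325% (1 of 30745 rows), and 0 had an unadjusted p under 0.05 (0.179% of all rows). This contrast was known when the genes were picked, and the values are given as a description. Airn, with 1 row, has no peak to be set against.

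The difference between the library numbers, averaged over both groups, is built from the same number ratios whose difference between groups is the deposited change. Its test uses the same counts as the choice of the genes, so its values and p-values are given as a description and support nothing further. Site 2 of Tug1 was higher in the libraries numbered 1, with means of 14.2 CPM in number 1 and 9.39 CPM in number 0 by its rmTBI row. The log2 value was 0.60 (SE 0.16, adjusted p = 0.0451 by the edgeR test over 33415 rows), and number 1 was higher in both groups. The sham row of the same site gave 0.59 (SE 0.16, adjusted p = 0.0455 by the same edgeR test) and shares its reads. These were 2 of 11 tested Tug1 rows, called higher against a background of 7.17%, so the share rests on 1 site. No Tug1 row was called lower, where the background was 9.25% (16.4% in either direction), and 4 Tug1 rows had an unadjusted p under 0.05 (32.3% of all rows). At 5 tested rows (site 2, site 6 and the rmTBI row of site 3) and at the untested site 1, both libraries numbered 1 lay above both numbered 0, which 31.3% of all rows did. The call was lost in each fit with a library left out (adjusted p 0.0894 to 0.246 for the rmTBI row, edgeR) and with DESeq2 (adjusted p = 0.0763), with log2 values from 0.49 to 0.70. Site 6 had a log2 value of 0.54 (SE 0.21, adjusted p = 0.135 by edgeR) by its rmTBI row, with 5.94 and 6.95 CPM in number 1 of rmTBI and sham and 4.02 and 4.85 CPM in number 0.

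Sites 5 and 7 showed little difference between the numbers. Site 7 had a log2 value of 0.09 (SE 0.19) and site 5 one of -0.02 (SE 0.23), by their rmTBI rows. Relative to the transcript's peaks as a whole, site 2 stood at 0.31 (adjusted p = 0.762), site 6 at 0.24 (adjusted p = 0.996), site 7 at -0.21 (adjusted p = 0.965) and site 5 at -0.31 (adjusted p = 0.890) for number 1 over number 0, by edgeR's test of a peak against its gene. No Tug1 row passed that test and 0 had an unadjusted p under 0.05, where 4.11% of 30745 rows passed (2.26% upward, 1.85% downward) and 13.9% had such an unadjusted p. A difference between the Tug1 peaks in this contrast was therefore not shown, and the test does not show that they act alike. The Airn row had a log2 value of -0.12 (SE 0.54, adjusted p = 0.904, edgeR) for number 1 over number 0.

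Within the groups, the ratio of library 1 to library 0 differed at a few sparse sites. At site 4 of Tug1 it was 1.90 on the log2 scale in rmTBI and -0.65 in sham. At Airn it was 1.08 in rmTBI and -0.92 in sham. Over all tested rows without a count of 0, 13.1% had a ratio above 1 in rmTBI and below 1 in sham. At site 2 the log2 ratio was 0.78 in rmTBI and 0.41 in sham, and at site 6 it was 0.56 in rmTBI and 0.52 in sham. The deposited change that chose the genes follows these ratios, and with 1 library of each number per group their difference has no replicate spread.

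**Figure D3:**
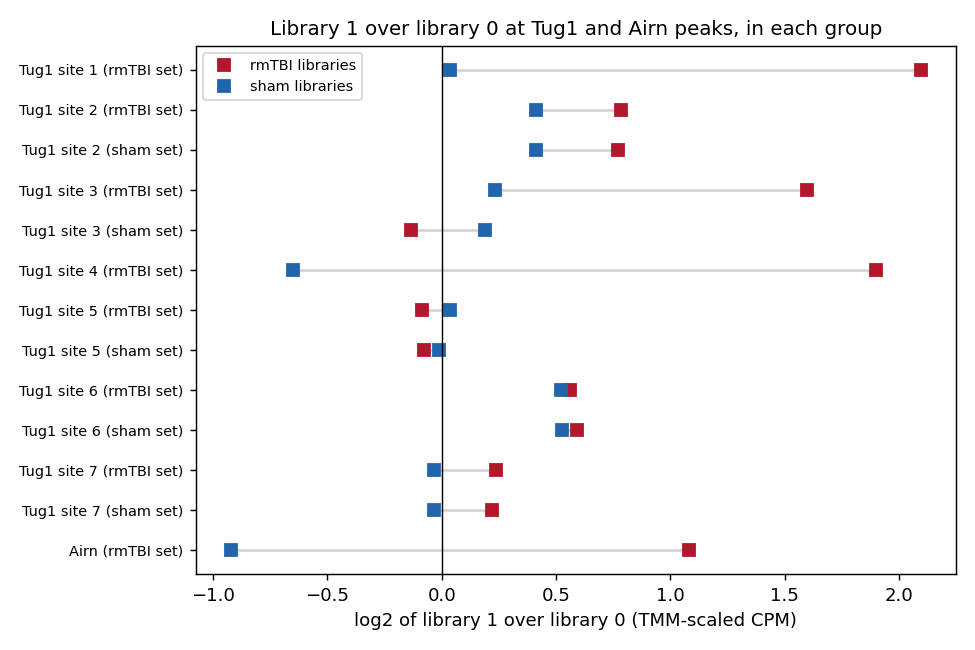
Log2 of library 1 over library 0 (TMM-scaled CPM) at each Tug1 row and the Airn row, in rmTBI (red) and sham (blue). The squares nearly meet at sites 5 and 6, and they lie far apart on opposite sides of 0 at site 4 and at Airn.

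The authors' deposited table carries its own log2 value per row, which followed the ratio of the number ratios in rmTBI over sham (Pearson r = 0.99 across rows, which are not independent replicates). In the authors' deposited table site 4 of Tug1 had a log2 value of 2.59 (p = 0.00976) and the Airn row one of 2.05 (p = 0.0474), and the adjusted p was 0.998 for both. These 2 of the 13 rows stood in the authors' deposited list of higher peaks, which held 277 rows or 0.815% of the table. At both rows rmTBI library 0 held the fewest counts, with 7 at site 4 and 11 at Airn against 33 and 35 in sham library 0. The library 1 counts were 55 and 49 in rmTBI against 41 and 36 in sham. Site 3 had a log2 value of 1.41 (p = 0.117) by its rmTBI row and -0.28 (p = 0.829) by its sham row in the authors' deposited table. The 2 rows share 121 bases. In rmTBI library 0 the rmTBI row held 8 counts and the sham row 25, while in rmTBI library 1 they held 51 and 48. The value at site 3 thus turned sign with the edges of the peak, and rmTBI library 0 was the library in which the 2 rows differed most by ratio. At the other sites with a pair of rows the authors' deposited table gave close values, such as 0.32 by the rmTBI row and 0.30 by the sham row of site 7, and 0.41 and 0.40 at site 2.

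Other genes of the 2 loci were then set beside the members. None of the 29 tested rows of 8 measured Tug1 neighbours was called in rmTBI against sham. An unadjusted p under 0.05 was found at 1 of them (2.84% of all rows). The median gene-level log2 value of the neighbours was 0.05, against 0.01 over all genes. Morc2a, the head-to-head neighbour of Tug1, had 10 rows with a median of 0.13, from -0.08 to 0.50. Its 5′ UTR row at chr11:3649913-3650349 held 7.96 and 7.02 CPM in rmTBI libraries 0 and 1, against 6.56 and 7.72 CPM in sham libraries 0 and 1, and the groups overlapped. Smtn, which encodes the smooth muscle protein smoothelin, had 1 row with 3.41 and 2.23 CPM in rmTBI and 6.56 and 4.57 CPM in sham (log2 -0.99, SE 0.35). Osbp2 (median 0.04), which encodes an oxysterol-binding protein, Limk2 (-0.08), a kinase of the actin regulator cofilin, and Rnf185 (0.05), a ubiquitin ligase, lay near 0. So did Pla2g3 (-0.04), a secreted phospholipase, and Patz1 (0.14), a zinc finger factor, while Pik3ip1, an inhibitor of phosphoinositide 3-kinase, stood at 0.25. In number 1 over number 0, 2 of the 29 neighbour rows were called higher by edgeR, against 7.17% of all rows. Both are rows of Patz1 that overlap and share reads.

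Of the Airn imprinted domain, 2 of 5 genes had a tested row. Igf2r, the receptor that clears insulin-like growth factor 2 and sorts lysosomal enzymes, held 31.2 and 27.5 CPM in rmTBI libraries 0 and 1, against 29.4 and 27.0 CPM in sham libraries 0 and 1, at its 3′ UTR row. The groups overlapped, and the 3 Igf2r rows had log2 values from -0.14 to 0.07. Mas1, the gene of an angiotensin-related receptor, overlaps the Airn span on the other strand, and its 2 rows lie inside that span. Its rmTBI row had a log2 value of -0.15 (SE 0.37) and its sham row one of -0.01 (SE 0.41). Neither Igf2r nor Mas1 had a row called in either contrast.

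**Figure D4:**
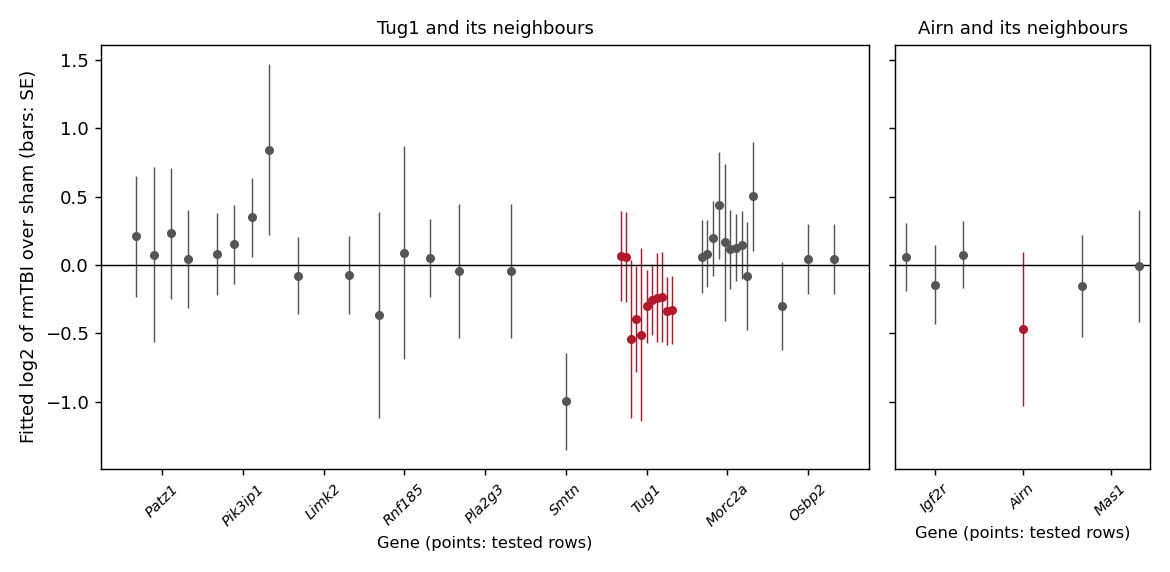
Fitted log2 of rmTBI over sham for each tested row of Tug1 and Airn (red) and of their neighbours (grey), with genes in genomic order, the Tug1 rows from site 2 on the left to site 7 on the right, and bars for the standard error. Of the 11 Tug1 rows 9 lie below 0, where overlapping rows of 1 site share reads. The single row of Smtn is the lowest at -0.99.

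Among 52 other brain or imprinted lncRNAs, 11 had a tested row. None of their 91 rows was called in rmTBI against sham, and 3 had an unadjusted p under 0.05 (2.84% of all rows). Of the genes 7 lay higher and 4 lower. Their median gene-level log2 value was 0.03. Dlx6os1, an antisense RNA of the interneuron gene Dlx6, stood highest at 0.70, and Tunar, an RNA of neural differentiation, lowest at -0.79. For number 1 over number 0, 8 of the 91 rows were called higher and 5 lower by edgeR, against 7.17% and 9.25% of all rows. Of 26 other imprinted genes 18 were measured, with 0 of 112 rows called and a median of -0.03. Among these rows 8 had an unadjusted p under 0.05, against 2.84% of all rows. For number 1 over number 0, 7 of these 112 rows were called higher and 17 lower by edgeR. Zim1, an imprinted zinc finger gene, stood highest at 0.64 and Igf2, the growth factor bound by the Igf2r receptor, lowest at -0.95. All 12 genes of chromatin proteins reported to act with these or like RNAs, among them the Polycomb genes Ezh2 and Suz12, were measured. None of their 32 rows was called or had an unadjusted p under 0.05 in rmTBI against sham, and 0 were called higher and 6 lower for number 1 over number 0 by edgeR. Rbbp4, which encodes a histone-binding protein, stood highest at 0.23, and the median was 0.05.

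The genes whose profile over the 4 libraries was most like that of a member were found by the distance between centred log2 CPM values. The search was among 655 other genes with an NP_exon row. For Tug1 they were Gm38169 (distance 0.0382), 4732440D04Rik (0.0612) and Gm30238 (0.0879), against a median distance of 0.809. For Airn they were Gm38187 (0.293), Gm43737 (0.371) and Peak1os (0.415), against a median of 1.30. With 4 libraries such likeness is a description of these libraries.

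Library totals over the peaks were 13753600 and 26888072 counts in rmTBI libraries 0 and 1 and 14437317 and 26356562 in sham libraries 0 and 1. Markers of cortical excitatory neurons were all measured (10 of 10, 9 higher in rmTBI, median log2 0.41), with 3028 and 2911 summed CPM in rmTBI and 2248 and 2283 in sham. The summed markers of other brain regions and cell types lay apart between the groups. By edgeR 8 of 21 thalamus rows were called lower in rmTBI, against 0.0868% of all rows. No row of the cortical, striatum, oligodendrocyte, choroid plexus or microglia markers was called in either direction. An unadjusted p under 0.05 by edgeR was found at 19 of 21 thalamus, 13 of 21 striatum, 14 of 19 oligodendrocyte and 8 of 8 choroid plexus rows. It was found at 9 of 57 cortical and 3 of 14 microglia rows, against 2.84% of all rows. The thalamus markers (7 of 8 measured, all lower, median log2 -2.77) summed to 107 and 117 CPM in rmTBI and 707 and 736 CPM in sham. Striatum markers (6 of 6, all lower, median -0.94) summed to 442 and 462 CPM in rmTBI and 858 and 935 CPM in sham. Oligodendrocyte markers (6 of 7, all lower, median -0.80) summed to 1039 and 832 CPM in rmTBI and 1623 and 1361 CPM in sham. Choroid plexus markers (3 of 5, all lower, median -2.63) summed to 15.7 and 16.7 CPM in rmTBI and 62.4 and 75.4 CPM in sham. Microglia markers (6 of 6, 5 higher, median 0.35) summed to 96.8 and 102 CPM in rmTBI and 75.9 and 89.3 CPM in sham. The markers Prkcd, Mag, Ttr and Folr1 had no row analysed here. Whether these shifts have any part in the Tug1 and Airn values was not tested.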

How the data were processed

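Anti-m6A libraries of mouse cortex were compared, 2 from rmTBI and 2 from sham mice, grouped by their titles. The authors deposited raw whole-number read counts per peak and a log2 value with a p-value per peak from a test that is not named in the file headers. STAR, DESeq2 and GRCm39 are named in the submitters' processing notes without versions, and no peak caller or read counter is named there. Counts of all rows went into edgeR 4.0.16 under R 4.3.3 (TMM, filterByExpr, quasi-likelihood F-test, Benjamini-Hochberg adjustment over 33415 rows), for group and, separately, for label number. The SE is the absolute log2 value over the root of F. Peaks of one gene were compared with diffSpliceDGE over 30745 rows, in which a value is relative to all peaks of the gene. Levels are TMM-scaled CPM. Likeness used log2 CPM with a prior count of 2. Scripts were tested on simulated data. Poisson intervals (95%, SciPy 1.17.1) cover counting error only. Named genes were all rows of Tug1 and Airn, every measured neighbour, and the highest and lowest gene of each further list, of which 1 is not reported here. In 1 list other genes are named as examples. The members and lists were chosen with earlier results of these data known. The authors' other deposited lists were not used. Alternatives were other scaling, filters, DESeq2 1.42.0, a block, 1 peak set and leaving out each library.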

Additional observations from a re-analysis of the deposited data

Results flagged for a closer look

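At 6 of the 13 rows the ratio of library 1 to library 0 lay above 1 in one group and below 1 in the other. These differences were not tested, because each ratio rests on 1 library of each number. Of all tested rows without a count of 0, 13.1% lay above 1 in rmTBI and below 1 in sham, and the opposite share was not counted. Rows of 1 site share reads, and the deposited change that chose the genes follows these differences, so nothing is read from the count. The log2 ratio in rmTBI minus that in sham was 2.55 at site 4 of Tug1 and 2.00 at Airn. At the other rows both ratios were close to 1. The difference was -0.33 at the sham row of site 3, -0.12 at the rmTBI row of site 5, 0.27 at the rmTBI row of site 7 and 0.26 at the sham row of site 7.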

How the results depend on the processing

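Of the 12 tested rows of Tug1 and Airn, 0 were called by edgeR or DESeq2 for rmTBI against sham under any alternative. Over all rows the 29 calls became 131 with DESeq2, 0 with at least 10 counts in every library (edgeR, 855 at an unadjusted p under 0.05), 2 with library-size scaling and 82 to 122 without one library. The replicate block gave 3553 calls, 0 of them at the members. The labels do not pair the samples, which share only a number, and with 2 pairs their deviations correlated with r = 0.483 over 33415 peaks. Without one library the fitted log2 value for rmTBI over sham ranged from -1.15 to 0.012 at Airn, from -1.82 to 0.052 at site 4, from -1.62 to -0.044 at the rmTBI row of site 3, from -0.39 to 0.38 and from -0.39 to 0.37 at the rmTBI and sham rows of site 2, and from -0.57 to 0.054 and from -0.58 to 0.066 at those of site 6. For number 1 against number 0 the 5485 calls became 12736 with group as a block and 1575 to 2748 without one library. Library-size scaling turned the higher share of these calls to 60.6%, against 43.7%, and moved the median log2 value of all rows to 0.14, against 0.04. Site 5 turned to 0.010 (rmTBI row) with at least 10 counts and to 0.081 (rmTBI row) and 0.060 (sham row) with library-size scaling. Without one library the number value ranged from -0.69 to 0.87 at Airn, from -0.43 to 1.69 at site 4, from -0.25 to 0.30 at the sham row of site 3, from -0.21 to 0.15 and -0.19 to 0.10 at the rmTBI and sham rows of site 5, and from -0.12 to 0.34 and -0.13 to 0.32 at those of site 7. Group as a block called site 6 (0.54, adjusted p = 0.0347 for the rmTBI row, edgeR). Relative to all peaks of a gene, the 1 call for rmTBI against sham became 14 with the replicate block and 0 with library-size scaling, with the peaks of either set alone and without any one library (edgeR, 42, 21, 23 and 78 to 273 at an unadjusted p under 0.05). Without one library the values ranged from 0.060 to 0.42 and 0.060 to 0.41 (site 2, rmTBI and sham rows), from -1.17 to -0.029 (site 3, rmTBI row), from -0.46 to 0.12 (site 3, sham row), from -1.38 to 0.11 (site 4), from -0.34 to 0.19 and -0.29 to 0.24 (site 5, rmTBI and sham rows), and from -0.18 to 0.18 and -0.17 to 0.19 (site 6). The 1263 such calls for number became 4906 with group as a block, 530 with the rmTBI set alone, 643 with the sham set alone and 226 to 484 without one library, and site 4 turned to 0.10 with the block and ranged from -0.56 to 1.21 without one library. The cause of these changes was not tested. At Tug1 sites 1, 3 and 4 and at Airn, counts of 2 to 69 per library limit the precision.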
